A study of Mus musculus with 24 samples.

Results

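Expression of 10 genes of mouse chromosome 7, Hddc3, Pop4, Emc10, Blvrb, Car11, Crtc3, Abcc6, Snhg14, Josd2 and Pcsk6, was described in the kidney cortex of mice lacking the hormone FGF21 and of wild type mice. They were picked from the 16921 genes of the table because their expression differed between the genotypes, so their genotype shifts are given as descriptions, without a test. All 10 passed the filter on low counts and stood among the 15165 genes tested. Of the 10, 9 were found by symbol and Snhg14, whose symbol is blank in the table, by its gene identifier ENSMUSG00000100826. All 10 lie on chromosome 7, the chromosome of Fgf21 itself.

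The study asked how a diet low in protein changes the ageing kidney and what FGF21 contributes. Male mice on the C57BL6/J background, wild type (WT) or FGF21 knockout (KO), ate casein diets freely from 3 months of age and were sampled at 22 months. The diets held 20% protein (normal protein, NP) or 5% protein (low protein, LP), which gave the groups WT_NP, WT_LP, KO_NP and KO_LP with 6 mice and 6 libraries each. All 4 groups shared sex, age and strain background. The labels do not give the design of the knockout allele, the strain in which it was made or the number of backcrosses. Fgf21 itself is not among the genes with deposited counts, so the knockout labels could not be checked on their target gene. Lexogen QuantSeq libraries tag the 3' end of each transcript and were read for 50 bases. Library totals ran from 8.47 to 21.1 M counts (median 15.0), with medians of 16.5 M in WT_NP, 16.5 in WT_LP, 13.3 in KO_NP and 12.4 in KO_LP. Levels are given in CPM, each library's counts scaled to a common total, and each p-value measures the spread between these mice.

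A targeted allele is inherited together with the stretch of chromosome around it, and backcrossing shortens that stretch only where recombination falls nearby. Where the allele was made in a strain other than the recipient, KO mice can therefore carry donor variants of genes linked to the target as well as lacking the target. With a single knockout line, loss of FGF21 and linked variants cannot be told apart, and the strain of the chromosome 7 sequence in these mice was not tested. A tag at the 3' end can also be counted differently where the sequence there differs from the reference genome, and this was not tested either.

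The 10 genes were spread over both sides of Fgf21, which lies on the minus strand at chr7:45613886-45615490 (GRCm38). Of these, 4 start close to it: Car11 (chr7:45699843-45704682, plus strand) at 84 kb, Abcc6 (chr7:45967555-46030302, minus) at 415 kb, Emc10 (chr7:44489937-44496529, minus) at 1119 kb and Josd2 (chr7:44467980-44471662, plus) at 1148 kb. Pop4 (chr7:38261996-38271423, minus) starts 7.34 Mb away and Blvrb (chr7:27447978-27466144, plus) 18.17 Mb away, both at lower coordinates. At higher coordinates Snhg14 (chr7:59307924-59975759, minus) starts 14.36 Mb away, Pcsk6 (chr7:65861734-66050386, plus) 20.25 Mb, Hddc3 (chr7:80343104-80350547, plus) 34.73 Mb and Crtc3 (chr7:80586627-80688877, minus) 35.07 Mb away. Josd2 and Emc10 start 28.5 kb from each other, Car11 and Abcc6 330.0 kb, and Hddc3 and Crtc3 346 kb. Of the 10, 9 are protein coding and Snhg14 is a noncoding transcript. Hddc3 overlaps Man2a2, and Snhg14 overlaps Ube3a and Gm44829, in each case on the opposite strand. Whether counting used the strand is not given in the sources used here, so reads of these partners could be shared.

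Promoter windows from RefSeq (GRCm38.p6), from 250 bases before to 50 bases after a start site, were found for 9 of the 10 genes. They are shown for Hddc3 and Pcsk6, which had the largest positive and the largest negative genotype log2 fold among the 10. They are also shown for Pop4 and Emc10, which hold the cAMP response element, the DNA word bound by CREB. The windows are Hddc3 at chr7:80342887-80343186 (plus strand), Pcsk6 at chr7:65861886-65862185 (plus), Pop4 at chr7:38271299-38271598 (minus) and Emc10 at chr7:44496369-44496668 (minus). Capitals mark matches, on either strand, to 4 searched words, none of which overlap in these windows: TGACGTCA as the cAMP response element, GGGCGG as the GC box, CCAAT as the CCAAT box and TATAAA as the TATA box.
Hddc3: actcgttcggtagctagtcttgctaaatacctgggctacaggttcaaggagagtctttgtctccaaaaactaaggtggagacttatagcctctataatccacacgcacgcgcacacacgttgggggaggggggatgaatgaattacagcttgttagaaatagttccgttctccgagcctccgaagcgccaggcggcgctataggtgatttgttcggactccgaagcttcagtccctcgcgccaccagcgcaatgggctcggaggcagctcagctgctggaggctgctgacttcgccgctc
Pcsk6: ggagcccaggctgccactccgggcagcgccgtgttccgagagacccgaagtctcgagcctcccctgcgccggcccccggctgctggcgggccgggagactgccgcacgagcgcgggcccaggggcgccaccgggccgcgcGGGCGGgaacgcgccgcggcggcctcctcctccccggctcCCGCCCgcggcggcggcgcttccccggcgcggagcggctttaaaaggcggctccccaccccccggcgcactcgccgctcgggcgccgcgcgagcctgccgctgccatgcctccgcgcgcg
Pop4: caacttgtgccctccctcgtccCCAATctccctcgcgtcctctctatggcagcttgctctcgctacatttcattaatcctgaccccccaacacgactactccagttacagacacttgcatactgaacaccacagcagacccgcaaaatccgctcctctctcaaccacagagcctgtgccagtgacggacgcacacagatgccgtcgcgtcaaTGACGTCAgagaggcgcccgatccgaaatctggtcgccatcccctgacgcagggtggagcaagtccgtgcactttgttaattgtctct
Emc10: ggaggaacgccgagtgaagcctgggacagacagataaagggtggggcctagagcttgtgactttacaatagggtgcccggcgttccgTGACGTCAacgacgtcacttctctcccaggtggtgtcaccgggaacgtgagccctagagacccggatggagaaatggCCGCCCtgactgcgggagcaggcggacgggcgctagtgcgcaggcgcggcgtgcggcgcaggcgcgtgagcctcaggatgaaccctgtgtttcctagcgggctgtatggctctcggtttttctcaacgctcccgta

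The cAMP response element was present in the first window of 2 of the 9 genes, Pop4 and Emc10, against 1.79% of 32851 mouse promoter windows of the same length. A GC box was found in 4 of the 9 (35.7% of all windows), a CCAAT box in 3 (37.4%) and a TATA box in 0 (13.6%). The Hddc3 window held none of the searched words. These are matches of letters only, and the windows are reference sequence rather than sequence of these mice. The RefSeq start used for Snhg14 lies outside the gene model that gave its coordinates above, and its window is not shown.

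Across the 10 genes, 4 were higher in KO (Hddc3, Blvrb, Car11 and Snhg14) and 6 lower (Pop4, Emc10, Crtc3, Abcc6, Josd2 and Pcsk6). Over both diets the genotype log2 folds (KO minus WT) ran from -2.06 to 1.91, with a median size of 1.30 against 0.10 over all genes tested. The 12 KO and 12 WT libraries did not overlap for 7 of the 10, where 0.158% of all tested genes showed no overlap. On NP alone the 6 KO and 6 WT libraries did not overlap for 9 of the 10 (1.57% of all genes), and on LP also for 9 (2.27%). The members were chosen on this contrast, so these counts describe the choice. The plot of every library shows the same split gene by gene.

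**Figure D1:**
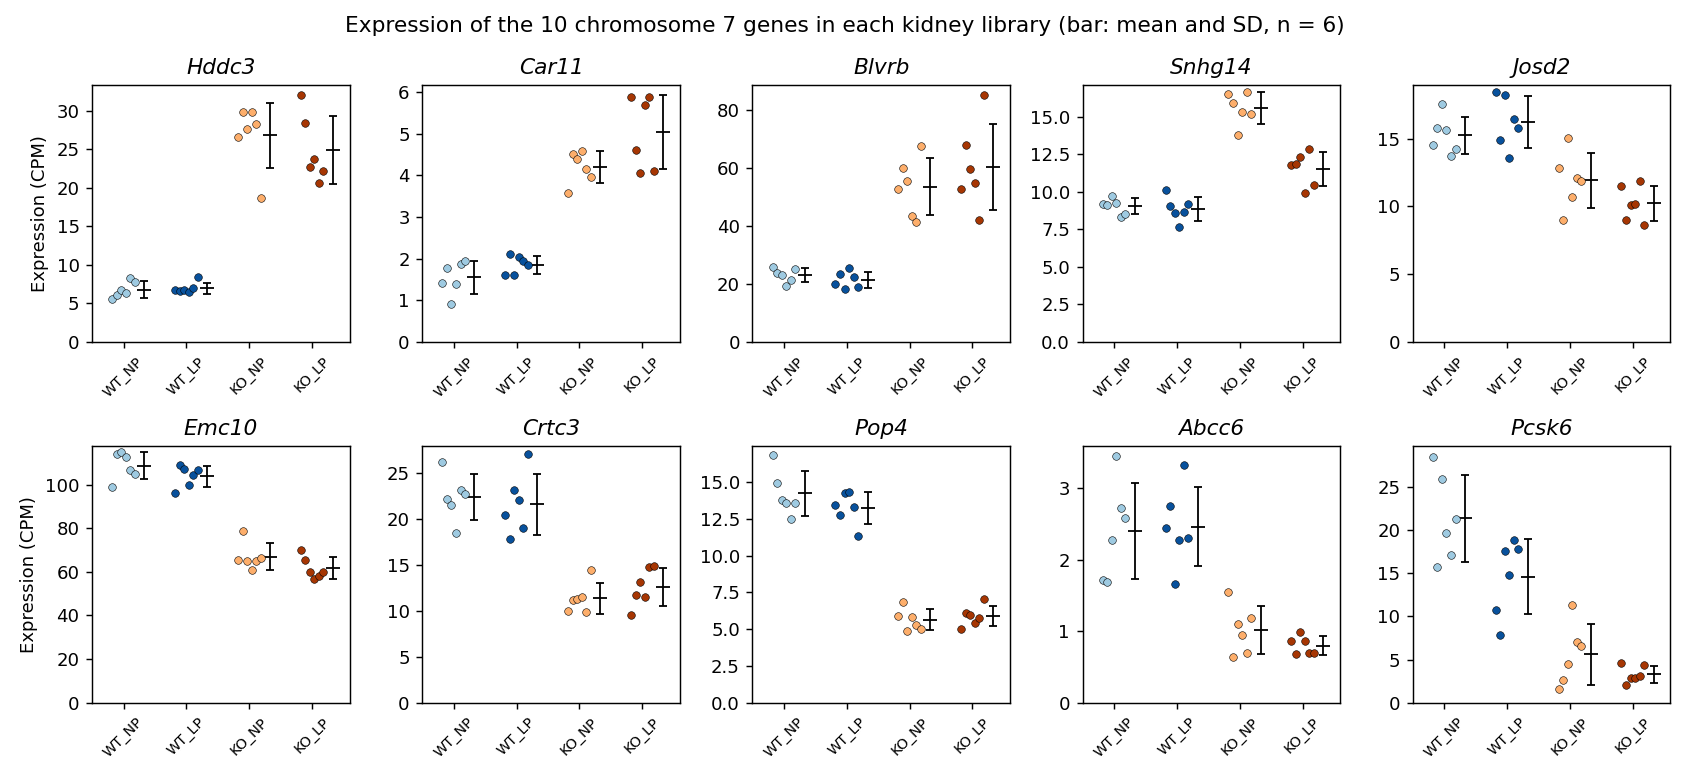
Expression in CPM (linear axes from 0) of the 10 genes in each of the 24 libraries, 1 point per mouse, grouped as WT_NP, WT_LP, KO_NP and KO_LP, with the mean and SD (n = 6) as bars. The 12 KO points stand wholly above the 12 WT points for Hddc3, Car11 and Blvrb and wholly below for Emc10, Crtc3, Pop4 and Abcc6, whereas Snhg14, Josd2 and Pcsk6 overlap.

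Among the genes for enzymes, Hddc3 encodes MESH1, a hydrolase of small nucleotides that acts as an NADPH phosphatase. Hddc3 stood at 5.52 to 8.30 CPM (median 6.57) in WT_NP and at 6.41 to 8.39 CPM (median 6.73) in WT_LP. In KO_NP it stood at 18.7 to 29.9 CPM (median 27.9), and in KO_LP at 20.5 to 32.0 CPM (median 23.2). Every KO library was thus above every WT library, with a wide gap between them. The log2 fold over both diets was 1.91 (SE 0.0877), with 1.99 (SE 0.124) on NP and 1.83 (SE 0.124) on LP. In bulk cortex, more or fewer cells of a type and more or less RNA per cell cannot be told apart, here and for the other 9 genes.

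Blvrb encodes biliverdin reductase B, which uses NADPH to reduce flavins and some biliverdins. It ran from 19.4 to 25.9 CPM (median 23.4) in WT_NP and from 18.3 to 25.6 CPM (median 21.2) in WT_LP. It ran from 41.5 to 67.8 CPM (median 54.4) in KO_NP and from 42.2 to 85.4 CPM (median 57.4) in KO_LP. The genotypes did not overlap, and the KO libraries were spread more widely than the WT ones. The log2 fold was 1.36 (SE 0.0973) over both diets, 1.21 (SE 0.138) on NP and 1.50 (SE 0.138) on LP.

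Car11 encodes a carbonic anhydrase related protein that lacks the catalytic activity of the family, and its gene starts closest to Fgf21 of the 10. Its level was low, at 0.897 to 1.93 CPM (median 1.59) in WT_NP and 1.60 to 2.10 CPM (median 1.88) in WT_LP. In KO_NP it was 3.59 to 4.59 CPM (median 4.27) and in KO_LP 4.05 to 5.89 CPM (median 5.15), again without overlap between genotypes. These levels rest on 13 to 36 counts per library in WT_NP and 48 to 99 in KO_LP. The log2 fold was 1.44 (SE 0.113) over both diets and also 1.44 on each diet.

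Of the genes for RNA and protein handling, Snhg14 is a long noncoding RNA of the imprinted Prader-Willi and Angelman region that hosts small nucleolar RNAs and runs antisense to the ubiquitin ligase gene Ube3a. It ranged from 8.30 to 9.73 CPM (median 9.18) in WT_NP and from 7.69 to 10.1 CPM (median 8.84) in WT_LP. It ranged from 13.8 to 16.7 CPM (median 15.6) in KO_NP but only from 9.94 to 12.8 CPM (median 11.8) in KO_LP, where the lowest KO library lay below the highest WT one. The log2 fold was 0.58 (SE 0.0572) over both diets, 0.78 (SE 0.0805) on NP and 0.37 (SE 0.0812) on LP.

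Pop4 encodes a protein subunit of RNase P and RNase MRP, the ribonucleoproteins that process transfer and ribosomal RNA precursors. It was at 12.5 to 16.9 CPM (median 13.7) in WT_NP and 11.3 to 14.3 CPM (median 13.4) in WT_LP. It was at 4.85 to 6.83 CPM (median 5.58) in KO_NP and 5.03 to 7.04 CPM (median 5.85) in KO_LP, so that all KO libraries lay below all WT ones. The log2 fold was -1.25 (SE 0.0703) over both diets, -1.34 on NP and -1.17 on LP.

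Emc10 encodes a subunit of the endoplasmic reticulum membrane complex, which inserts membrane proteins. It varied least among mice of a group, with a pooled within-group SD of 0.101 on the log2 CPM scale. It stood at 99.0 to 115 CPM (median 109.8) in WT_NP and 96.5 to 109 CPM (median 106) in WT_LP. It stood at 61.0 to 79.0 CPM (median 65.2) in KO_NP and 56.6 to 70.0 CPM (median 60.1) in KO_LP, without overlap. Its log2 fold of -0.73 (SE 0.0468) over both diets was small beside that of Pop4, but its libraries were as cleanly split. Josd2, the neighbouring gene, encodes a Josephin domain deubiquitinase and was less cleanly split. It ran from 13.7 to 17.5 CPM (median 15.1) in WT_NP and from 13.6 to 18.5 CPM (median 16.2) in WT_LP. It ran from 9.02 to 15.0 CPM (median 11.97) in KO_NP, reaching into the WT range, and from 8.66 to 11.9 CPM (median 10.1) in KO_LP, wholly below WT_LP. The Josd2 log2 fold was -0.51 (SE 0.0773) over both diets, -0.36 (SE 0.109) on NP and -0.67 (SE 0.11) on LP.

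Among the genes for signalling, transport and secretory processing, Crtc3 encodes a coactivator that moves to the nucleus and helps CREB switch on its targets. It was at 18.5 to 26.2 CPM (median 22.4) in WT_NP and 17.8 to 27.1 CPM (median 21.3) in WT_LP. It was at 9.85 to 14.4 CPM (median 11.2) in KO_NP and 9.57 to 14.9 CPM (median 12.4) in KO_LP, without overlap between genotypes. The log2 fold was -0.88 (SE 0.0826) over both diets, -0.98 on NP and -0.77 on LP.

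Abcc6 encodes an ABC transporter through which cells release ATP, a source of the calcification inhibitor pyrophosphate. It was at 1.68 to 3.45 CPM (median 2.43) in WT_NP and 1.66 to 3.32 CPM (median 2.37) in WT_LP. It was at 0.644 to 1.55 CPM (median 1.02) in KO_NP and 0.676 to 0.994 CPM (median 0.777) in KO_LP. The genotypes did not overlap, but the KO_LP values rest on 7 to 15 counts per library and the KO_NP values on 9 to 19. The log2 fold was accordingly less precise, at -1.43 (SE 0.165) over both diets, -1.24 on NP and -1.62 on LP.

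Pcsk6 encodes PACE4, a proprotein convertase that cleaves secreted precursors. It varied most among mice, with a within-group SD of 0.612 on the log2 CPM scale. It ran from 15.7 to 28.5 CPM (median 20.5) in WT_NP and from 7.89 to 18.8 CPM (median 16.2) in WT_LP. It ran from 1.63 to 11.4 CPM (median 5.49) in KO_NP and from 2.03 to 4.54 CPM (median 3.00) in KO_LP. The 6 KO and 6 WT libraries were apart on each diet, and overlapped over both diets because the highest KO_NP library exceeded the lowest WT_LP ones. The coefficient of variation in KO_NP was 62.9%. The log2 fold of -2.06 (SE 0.226) over both diets ran from -2.23 to -1.96 when each of the 24 libraries was left out in turn.

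The effect of LP could be tested, because with equal group sizes the diet contrast over both genotypes is orthogonal to the genotype contrasts, over both diets and on each. By edgeR's quasi-likelihood test, 0 of the 10 genes were called at an adjusted p under 0.05, where 95 of all tested genes (0.626%) were, and 3 of the 10 had an unadjusted p under 0.05, as did 2489 of all tested genes (16.4%). With DESeq2 and with limma voom 1 of the 10 was called, Snhg14. Its log2 fold (LP minus NP) was -0.23 (SE 0.0572, edgeR adjusted p = 0.0577). Pcsk6 had a log2 fold of -0.66 (SE 0.226, edgeR adjusted p = 0.171), and its LP libraries were below the NP mean in 6 of 6 WT and 6 of 6 KO mice. Car11 had one of 0.26 (SE 0.113, edgeR adjusted p = 0.259). The diet log2 folds of the other 7 genes lay between -0.15 (Abcc6) and 0.05 (Crtc3). The members' median size of diet log2 fold was 0.08 against 0.11 over all genes, and no gene of the 10 had NP and LP libraries apart over both genotypes (0.00659% of all genes). The plot of log2 folds sets these values beside the genotype shifts.

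**Figure D2:**
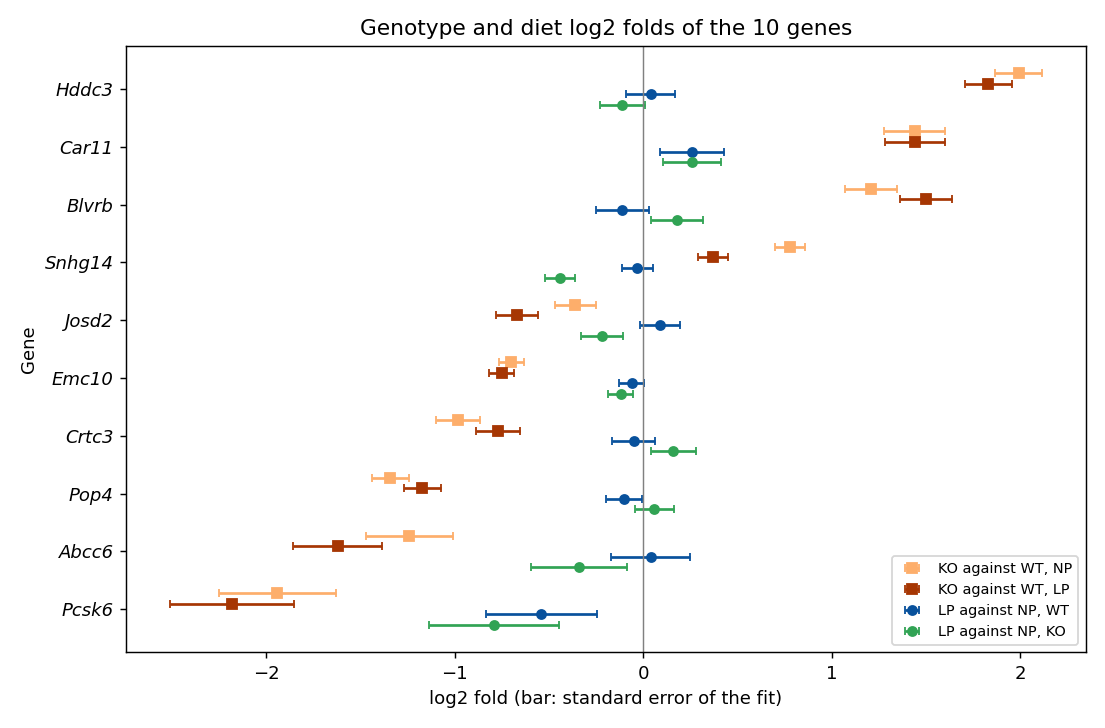
Log2 folds of the 10 genes with their standard errors: squares are KO against WT on NP and on LP, circles are LP against NP in WT and in KO, all from 1 fit to 24 libraries. The squares lie away from 0, from -2.18 (Pcsk6 on LP) to 1.99 (Hddc3 on NP), while the circles lie between -0.79 and 0.26.

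Within KO, Snhg14 fell on LP. Its log2 fold was -0.44 (SE 0.0804, 95% interval -0.60 to -0.27, edgeR adjusted p = 0.00932), and 6 of 6 KO_LP libraries were below every KO_NP library. It was the only member called of 10, in a comparison in which 1087 genes (7.17%) were called, and the only member whose KO_NP and KO_LP libraries did not overlap (3.71% of all genes). In WT its log2 fold was -0.03 (SE 0.0813, edgeR adjusted p = 1). The difference between these diet effects was -0.41 (SE 0.114), which did not pass (edgeR adjusted p = 0.161). Over the 6 other settings in which no library was left out, the adjusted p of this difference ran from 0.0709 to 0.218, so a diet effect particular to KO was not established. The diet effects within a genotype and their difference use the same libraries as the genotype contrast over both diets but are orthogonal to it. They are not orthogonal to the genotype contrasts on 1 diet, which may also have chosen the genes and where the Snhg14 shift was 0.78 on NP and 0.37 on LP.

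Some cell type markers also differed between KO_NP and KO_LP, a comparison in which 7.17% of all tested genes were called. The summed level of 8 proximal tubule markers had a median of 31103 CPM in KO_NP (25640 to 37323) and 22052 CPM in KO_LP (14660 to 28380), and 2 of the 8 fell. The 4 macrophage markers summed to a median of 253 CPM in KO_NP (209.98 to 276) and 391 CPM in KO_LP (297 to 829.5), with 1 of 4 higher, and 3 T cell markers to 4.91 CPM (3.15 to 7.21) and 8.77 CPM (4.25 to 23.0), with 1 of 3 higher. The part of these shifts in the Snhg14 result was not tested. Without KO_LP 4, the library highest in macrophage and T cell markers, the Snhg14 log2 fold was -0.40 (edgeR adjusted p = 0.0276), and without KO_LP 6 it was -0.41 (edgeR adjusted p = 0.0208). The count over all genes fell to 136 and 466 in those fits. Proximal tubule markers were abundant in all 24 libraries, with the lowest sum at 14660 CPM. Loop of Henle and collecting duct markers were also present in all 24, with lowest sums of 1407 and 118 CPM. B and plasma cell markers (2 tested) summed to a median of 1864 CPM in KO_NP (1340.2 to 2808) and 3457 CPM in KO_LP (1343.6 to 14546), with 0 called, and 1 of 4 podocyte markers rose on LP in KO. Between genotypes, 1 of 4 podocyte markers was lower in KO, and no marker of the other 11 lists was called.

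The other 9 genes were not called for LP in KO. Pcsk6 was at -0.79 (SE 0.344, edgeR adjusted p = 0.14), Abcc6 at -0.34 (SE 0.256) and Josd2 at -0.22 (SE 0.112), each with 6 of 6 KO_LP libraries below the KO_NP mean. In WT 0 of the 10 genes and 0 of all tested genes (0.0%) were called by edgeR, with 580 genes at an unadjusted p under 0.05, and DESeq2 called 14 genes and limma voom 6. For the difference of the diet effects edgeR also called 0 members and 0 genes (0.0%), with 2430 genes at an unadjusted p under 0.05, and DESeq2 called 117. The 95% intervals of that difference reached from -1.18 to 0.69 for Pcsk6 and from -0.47 to 0.47 for Car11. Differences in the diet response within these intervals were not excluded.

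Genes near the 10 also differed between genotypes. The 3 nearest tested genes on each side of each member made 53 distinct neighbours, of which 7 were higher and 6 lower in KO, or 24.5% against 3.77% of all tested genes (edgeR, adjusted p under 0.05). Bcat2, a mitochondrial branched chain aminotransferase, was among the 3 nearest tested genes on the lower side of Car11. Its start is 130 kb from that of Car11, beyond Fgf21 and the uncalled Rasip1, and at -0.05 Mb from that of Fgf21. Bcat2 was at 9.64 ± 2.35 and 10.9 ± 1.7 CPM (SD, n = 6) in WT_NP and WT_LP. In KO_NP and KO_LP it was at 26.5 ± 5.02 and 18.4 ± 2.35 CPM (log2 fold 1.11, SE 0.108, edgeR adjusted p = 3.2e-07). On the same side of Car11, Hsd17b14, a dehydrogenase, was lower in KO (-1.01, edgeR adjusted p = 0.016), and on the other side the sphingosine kinase gene Sphk2 was lower (-0.39, edgeR adjusted p = 0.00152). Among the neighbours of Abcc6, Ccdc114, with 43.5 kb between starts, was lower (-1.18, edgeR adjusted p = 5.1e-05). Sergef, with 476 kb between starts and the uncalled Nomo1 and Ush1c nearer to Abcc6, was higher (0.32, edgeR adjusted p = 0.029).

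Near Hddc3, Rccd1 was higher in KO (0.76, edgeR adjusted p = 0.00404) and Furin, a proprotein convertase like Pcsk6, was lower (-0.35, edgeR adjusted p = 0.0265). Man2a2, the gene that overlaps Hddc3 on the other strand, had a log2 fold of 0.07 (edgeR adjusted p = 0.627). Near Pop4, Plekhf1 (0.37) and 1600014C10Rik (0.29) were higher. Near Blvrb, Sertad3 was lower (-0.38), and near Pcsk6 the selenoprotein gene Selenos was lower (-0.39) and Snrpa1 higher (0.19). Next to Snhg14, Ube3a had a log2 fold of -0.02 (edgeR adjusted p = 0.894), while Gm44829, which Snhg14 overlaps, was higher (0.45, edgeR adjusted p = 0.0245). Josd2 and Emc10 share the same neighbours, none of which was called, and the other 8 members each had at least 1 called neighbour. For Crtc3 the only called neighbour was Furin, with 198 kb between starts, which is also the neighbour of Hddc3 named above. Directions were mixed along the chromosome, and 0 of the 53 neighbours were called for LP over both genotypes.

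With the 10 members left out, 88 of 1185 tested genes on chromosome 7 were called between genotypes (7.43%), 40 higher and 48 lower in KO, against 471 of 13945 on all other chromosomes (3.38%). Among the 18 other autosomes the share ran from 1.91% on chromosome 16 to 6.82% on chromosome 9, all below chromosome 7 in this fit. With each library left out, the chromosome 7 share ran from 6.27% to 9.1%, and that of all other chromosomes together from 2.42% to 4.34%. The range of chromosome 7 includes the 6.82% of chromosome 9 in the fit to all libraries. The share of chromosome 9 with each library left out was not taken, so the 2 chromosomes were not compared in those fits. In the fit to all libraries the share was higher than on chromosome 7 for the few tested genes of the mitochondrial genome (5 of 21, 23.8%) and chromosome Y (1 of 7, 14.3%). By distance from Fgf21 the share was 14.5% within 1 Mb (9 of 62), 8.33% at 1 to 5 Mb (5 of 60), 25.0% at 5 to 10 Mb (5 of 20), 11.2% at 10 to 20 Mb (23 of 205) and 8.61% at 20 to 40 Mb (23 of 267). Beyond 40 Mb it was 4.03% (23 of 571). The 10 members lie within 40 Mb, where 65 of 614 other genes were called (10.6%). The bar plot of shares by distance shows no steady fall with distance inside 40 Mb.

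**Figure D3:**
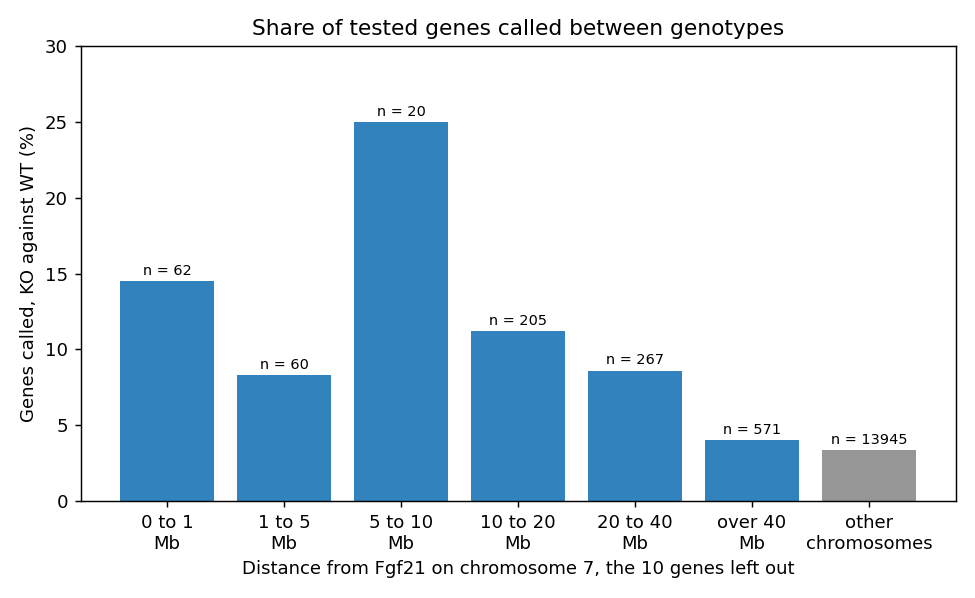
Share in percent of tested genes called between genotypes (edgeR, adjusted p under 0.05), by distance from Fgf21 on chromosome 7 with the 10 members left out, and on all other chromosomes; n is the number of genes tested. The shares within 40 Mb run from 8.33% to 25.0%, against 4.03% beyond 40 Mb and 3.38% on other chromosomes.

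The same shares were taken for each diet and for the diet effect, again with the 10 members left out. On NP, where 0.574% of all tested genes were called between genotypes, 30 of 1185 chromosome 7 genes (2.53%) and 48 of 13945 genes elsewhere (0.344%) were called. On LP, where 2.93% of all tested genes were called, these were 61 (5.15%) and 373 (2.67%). For LP over both genotypes the shares were 0.338% on chromosome 7 (4 genes) and 0.653% elsewhere (91 genes), and for LP in KO 6.5% (77 genes) and 7.22% (1007 genes). The share was thus higher on chromosome 7 for genotype and not for diet. Of called chromosome 7 genes outside the 10 with a mean of at least 5 CPM, the largest positive genotype shift was that of the kallikrein gene Klk1b22, 1.50 Mb from Fgf21 on the lower side. Klk1b22 stood at 1.216 ± 0.497 and 1.29 ± 0.32 CPM (SD, n = 6) in WT_NP and WT_LP and at 76.8 ± 9.15 and 76.6 ± 32.5 CPM in KO_NP and KO_LP (log2 fold 5.95, edgeR adjusted p = 1.2e-15). The gene belongs to a family of near-identical copies, so reads could be misassigned among them. The next positive shifts were those of Cox6a2 (1.30, with 2.01 on NP and 0.58 on LP), Bcat2, Ngrn (0.60) and Me3 (0.57). Of these, Cox6a2 and Me3 start beyond 40 Mb from Fgf21, at 82.59 and 44.02 Mb, and Bcat2 and Ngrn start within 40 Mb. The largest negative ones were those of the gastric proton pump gene Atp4a (-1.62), Ceacam2 (-1.33), the mitochondrial ribosomal protein gene Mrps12 (-1.05), Lrrc28 (-0.97) and 0610006L08Rik (-0.92).

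**Figure D4:**
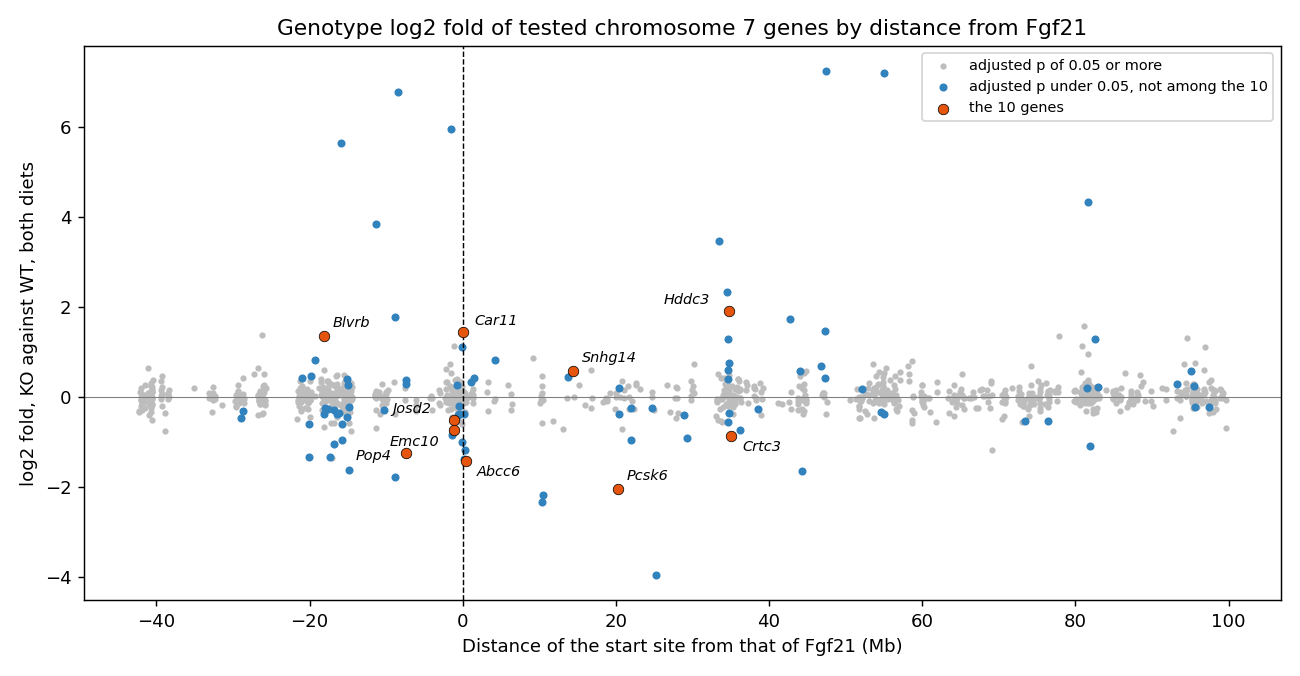
Genotype log2 fold (KO against WT over both diets) of each tested chromosome 7 gene against the distance of its start site from that of Fgf21 in Mb; large points are the 10 members, blue points other genes called by edgeR, grey points genes not called. The members lie between 18.17 Mb below and 35.07 Mb above Fgf21, with higher and lower genes on both sides.

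Partners here are genes that share a complex, a family, a pathway or a locus with 1 of the 10 genes. The 10 lists of partners, such as the other subunits of the same complex or the same enzyme family, held 72 tested genes. Of these, 1 was higher and 2 were lower in KO over both diets, where 3.77% of all genes were called. Car12, a membrane carbonic anhydrase, was higher (log2 fold 0.46, edgeR adjusted p = 0.0276), and the convertases Furin (-0.35) and Pcsk5 (-0.30, edgeR adjusted p = 0.0447) were lower. Of these 3, Furin lies on chromosome 7. None of the 9 other subunits of the Emc10 complex was called, with a median log2 fold of 0.03, and none of 9 RNase P and MRP proteins, with a median of -0.01. The same held for 2 Josephin deubiquitinases (-0.06), 3 heme breakdown genes (0.05), 8 genes for CREB, its coactivators and their kinases (-0.01), 9 genes for ABCC transporters and pyrophosphate supply (0.00), 6 genes of the imprinted region around Snhg14 (-0.03) and 8 NADPH genes (0.06). The median over all genes was 0.00. The number called depended on the method, with 5 by DESeq2, 9 by limma voom and 1 by limma on the normalized values, and ran from 2 (without WT_NP 3) to 6 (without WT_NP 1) when 1 library was left out.

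In the diet contrast over both genotypes 1 of the 72 partners was called, Car2, the cytosolic carbonic anhydrase, which fell on LP (-0.40, edgeR adjusted p = 0.02). In KO, where 7.17% of all genes were called, 5 partners fell on LP, namely Car2 (-0.67), Car3 (-1.58), Snrpn (-0.65), Emc2 (-0.34) and Nnt (-0.32). Snrpn, an imprinted splicing factor gene transcribed from the same strand as Snhg14, stood at 21.9 ± 3.54 CPM (SD, n = 6) in KO_NP and 14.0 ± 3.25 CPM in KO_LP (edgeR adjusted p = 0.0236). Its genotype log2 fold was -0.01, unlike the 0.58 of Snhg14, though the difference between these genes was not tested.

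By Pearson correlation of log2 CPM over the 24 libraries, the gene most like each member was on chromosome 7 for 9 of the 10. The r ran from 0.85 to 0.98, and only 5 different genes were nearest to the 10 members. Of all tested genes, 7.88% lie on chromosome 7. Klk1b22 was nearest to Hddc3 (0.98), Blvrb (0.93) and Car11 (0.92), and the noncoding Gm42397 to Emc10 (0.90), Crtc3 (0.88) and Pop4 (0.86). A230056P14Rik was nearest to Abcc6 (0.89) and Josd2 (0.85), Gm44954 to Snhg14 (0.87), and Cryab on chromosome 9 to Pcsk6 (0.90). The 24 libraries span both genotypes, so a shift between genotypes in a pair of genes enters their r. The members were chosen for such a shift, so the count of 9 cannot be separated from that choice. On deviations from the 4 group means, which remove differences between groups, the nearest genes were 10 different ones with r from 0.71 to 0.81, and 3 of them were on chromosome 7 (Neu3 for Car11, Aplp1 for Crtc3 and Fam160a2 for Abcc6). Each is the highest of the correlations with all tested genes that have a symbol, and is given as a description.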

How the data were processed

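Kidney cortex RNA of 24 mice was analysed from the raw counts per gene that the authors deposited. The authors also deposited a normalized signal per gene (counts divided by a size factor per library), which served only in an alternative. GRCm38 and DESeq2 1.22.2 are named per the submitters' processing notes; which aligner and counting tool were used is not given in the sources used here. The lowest mean count of a deposited gene was 3. Coordinates, and 2668 symbols beside the 14208 in the file, came from GENCODE M21.

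Counts were fitted in R 4.3.3 with edgeR 4.0.16 (filterByExpr on the 4 groups, TMM factors, robust quasi-likelihood, 4 group means over all 24 libraries), with two-sided tests and Benjamini-Hochberg adjustment over 15165 genes. Calls required an adjusted p below 0.05. CPM used TMM-scaled library sizes; correlations used log2 CPM with a prior count of 2. The biological coefficient of variation was 19.6%. The scripts were tested on simulated data. The labels name each library by its own mouse but give no batch.

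Alternatives were DESeq2 size factors, no filter, at least 5 CPM in at least 6 libraries, DESeq2 1.42.0, voom with quality weights (limma 3.58.1), limma on log2 of the normalized values plus 1, and leaving out each library. The members, lists and comparisons were chosen with earlier results of these data known. Named were all members, the 3 nearest tested genes on each side of each, called partners, the most correlated gene per member, and the 5 largest called rises and falls on chromosome 7 with a mean of at least 5 CPM. Python 3.11.15 with numpy 2.4.6, pandas 2.3.3, scipy 1.17.1 and matplotlib 3.10.9 prepared tables and figures.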

Additional observations from a re-analysis of the deposited data

Results flagged for a closer look

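In each gene and group of 6 libraries, the highest and lowest library were compared with the rest, and 4 stood apart in that the gap to the nearest library took up more of the group's range than Dixon's 95% critical value allows. Chance flags about 1 in 20 groups. Hddc3 was at 8.39 CPM in WT_LP 6, above the next library at 6.94 CPM, and at 18.7 CPM in KO_NP 6, below the next at 26.6 CPM. Emc10 was at 79.0 CPM in KO_NP 2, where the next was at 66.6 CPM. Crtc3 was at 14.4 CPM in KO_NP 6, where the next was at 11.5 CPM. Each of these KO values remained on the KO side of all WT libraries. KO_NP 6 was thus nearer to WT than the other KO_NP libraries in both Hddc3 and Crtc3. For Crtc3, KO_LP 5 (14.7 CPM) and KO_LP 6 (14.9 CPM) were nearer to WT still. For Blvrb, KO_NP 6 was the KO_NP library farthest from WT (67.8 CPM). Without KO_NP 6 the genotype log2 fold of Hddc3 on NP was 2.07 in place of 1.99.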

How the results depend on the processing

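With all libraries in, the 174 recomputed genotype log2 folds of single members kept their direction. Likewise 230 diet and interaction values stayed on their side of the threshold and 2 passed it where edgeR did not, both for the diet effect on Snhg14 over both genotypes: -0.24 with DESeq2 (adjusted p = 0.019) and -0.21 with voom (adjusted p = 0.0433). Sign changes within 1 SE of 0 were not counted as reversals. The median size of the members' genotype shift was 1.06 over both diets and 0.96 on LP with the filter of 5 CPM, which removes Car11 and Abcc6, and ran from 1.28 to 1.32 over both diets, 1.14 to 1.28 on NP and 1.26 to 1.33 on LP with each library left out. DESeq2 called 297 genes for LP over both genotypes (1 member), 14 in WT, 1839 in KO and 117 for the interaction, voom 506 (1 member), 6 and 1744 for the first 3. With each library left out, edgeR called 34 (without WT_NP 4) to 506 (without WT_NP 1) over both genotypes (0 to 1 members), 0 to 2 in WT, and 122 (without KO_NP 5) to 2006 (without KO_LP 1) in KO, with Snhg14 the 1 member called in every fit. Genotype calls on other chromosomes were 5.29% with DESeq2 and 6.52% with voom, where chromosome 7 outside the members had 11.4%. With each library left out they were 2.42% to 4.34%, against 6.27% to 9.1% on chromosome 7 and 8.55% to 12.3% within 40 Mb, with 10 to 13 neighbours called. Called partners numbered 5 with the filter of 5 CPM, 5 with DESeq2, 9 with voom, 1 with limma on normalized values and 2 to 6 with libraries left out. The causes were not tested. Leaving out each library was chosen after seeing the data for the diet counts, neighbours, windows and partners. No paired analysis was possible because the labels give no shared replicate numbers. Depth limits Abcc6 and Car11 most.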
